A study of Arabidopsis thaliana with 16 samples.

Results

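The genes described here were raised by both ethylene and auxin in roots of dark-grown wild-type Arabidopsis seedlings, and were followed into a mutant of each hormone pathway. Members were chosen by their levels on the wild-type arrays. A probe set qualified when its log2 level exceeded 4 on 2 or more of the 16 arrays and both wild-type differences, ethylene minus air and indole-3-acetic acid (IAA, the main natural auxin) minus mock, were at least 0.6 on the log2 scale, which is 1.52-fold. Genes of the EXP, XTH, GH3, LBD, TBL and UGT names and peroxidase and DUF241 genes were left out. Of 14244 probe sets tested, 93 met these limits and 5 of them belonged to the families left out, so that 88 remained. The annotation gave 1 locus for 46 of the members and several genes for 1, and did not list the other 41, which could not be screened for the families left out. Another 2 probe sets met the limits without passing the filter on low levels. Since the wild-type differences chose the members, they are given as a description.

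Ethylene and auxin both slow the elongation of the root and promote root hairs. Ethylene is perceived by receptors in the endoplasmic reticulum, and EIN2 carries the signal from them towards the EIN3 family of transcription factors. Auxin is bound by TIR1/AFB receptors, which mark the Aux/IAA repressors for degradation and so release the ARF transcription factors, and AUX1 carries auxin into cells. In roots the pathways meet because ethylene promotes auxin synthesis and transport, and auxin promotes ethylene synthesis.

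The study held 8 groups of 2 arrays, all from roots cut away from the hypocotyls of seedlings that were chilled for 3 days at 4 °C and then grown in darkness for 3 days at 22 °C. For the ethylene treatment, the aux1-7 mutant (aux1, auxin resistant) and wild-type Col-0 (Col) were kept for 4 h in 10 ppm ethylene or in hydrocarbon-free air. For the IAA treatment, the ein2-5 mutant (ein2, ethylene insensitive) and Col were sprayed with 1 µM IAA in 0.01% ethanol or with 0.01% ethanol alone (mock) and kept for 4 h. Each mutant is represented by 1 allele, the experiments share no array, and replicates are biological ones per the series' design text.

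Array medians lay between 5.872 and 6.002. The root gene PYK10, a beta-glucosidase of the endoplasmic reticulum, averaged between 13.78 and 14.22 in the 8 groups. It was the only 1 of 11 root markers with a named probe set, none of 6 shoot markers had one, and the mutated genes AUX1 and EIN2 were not analysed here for the same reason. In roots taken whole, fewer cells of a type and less RNA per cell cannot be told apart. All levels below are log2 values, all differences are differences of log2 means, and ± is the moderated standard error from limma with n = 2 arrays in each group. A difference was called at an adjusted p under 0.05 over all 14244 probe sets.

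In Col the members' median difference was 1.02 for ethylene, with a range of 0.61 to 6.46, and 0.93 for IAA, with a range of 0.60 to 4.10. limma called 61 of the 88 higher with ethylene, against 3.98% of all probe sets, and 55 higher with IAA, against 4.09%. Both ethylene arrays stood above both air arrays for 81 members, against 24.6% of all probe sets, and both IAA arrays above both mock arrays for 83, against 30.6%. The rule used these Col arrays, so the counts follow from the choice of members and nothing is read from them. At the limit, the Dof-type gene AT2G34140 lay just inside with an IAA difference of 0.60, and AT1G72940 lay just outside with 0.598. Membership was sensitive to single Col arrays: 40 members, among them 22 of the 46 genes with a locus, were still chosen whichever 1 of the 8 Col arrays was left out. Most members were expressed without hormone, since 62 were above 4 on both arrays of all 4 untreated groups and 6 were above 4 on none of those arrays.

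The first question was what became of the ethylene effect in aux1, where auxin uptake by the carrier is impaired. limma called 43 of the 88 members higher with ethylene than with air in aux1 and none lower, where 3.28% of all probe sets were higher and 541 probe sets were lower. No member was lower at an unadjusted p under 0.05 either (0 of 88). The members' median difference was 0.74, with quartiles of 0.24 and 1.26, against -0.01 over all probe sets. Both ethylene arrays stood above both air arrays for 64 members, against 19.3% of all probe sets, and 52 had a difference of at least 0.6, against 4.58%. The lowest difference, -0.99, belonged to an unlisted probe set. The count of 43 fell to 26 without aux1 air replicate 2 and to 28 without aux1 ethylene replicate 1.

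The second question was what became of the IAA effect in ein2, where the ethylene signal is blocked. limma called 28 of the 88 members higher with IAA than with mock in ein2 and none lower, where 1.90% of all probe sets were higher and 185 probe sets were lower. At an unadjusted p under 0.05 the number of lower members was also 0. The median difference was 0.69, with quartiles of 0.26 and 1.14, against -0.01 over all probe sets. Both IAA arrays stood above both mock arrays for 69 members, against 22.1% of all probe sets, and 48 had a difference of at least 0.6, against 3.03%. Leaving out ein2 mock replicate 1 or 2 gave 16 or 15 called members, and leaving out ein2 IAA replicate 1 or 2 gave 17 or 15. Over the 88 members the ethylene effect in aux1 and the IAA effect in ein2 had Pearson's r of -0.14 and Spearman's rho of -0.07. These coefficients describe probe sets measured on the same 8 mutant arrays, which are not replicates. The members were chosen by both Col effects, and the coefficients were not computed over all probe sets. Nothing particular to the members is therefore read from them.

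**Figure D1:**
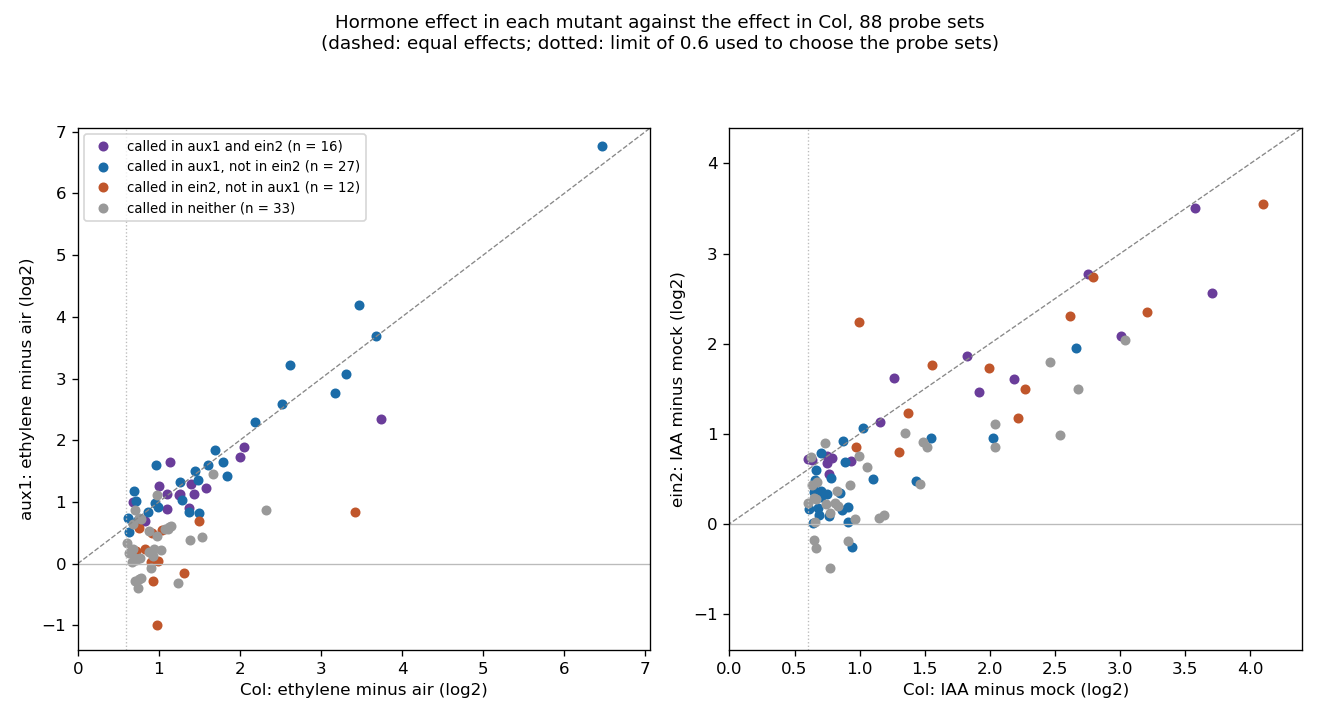
Hormone effect in the mutant (vertical axis, log2) against the effect of the same hormone in Col (horizontal axis, log2) for the 88 members, ethylene in aux1 in one panel and IAA in ein2 in the other. Points are probe sets, coloured by where limma called the mutant difference: 16 in both mutants, 27 in aux1 and not in ein2, 12 in ein2 and not in aux1, and 33 in neither. The dashed line marks equal effects and the dotted line the limit of 0.6 that chose the members.

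Sorted by both calls, 16 members were called in both mutants, 27 in aux1 and not in ein2, 12 in ein2 and not in aux1, and 33 in neither. A call in one mutant and its absence in the other does not show that the effects differ, and that difference was not tested. The members called in aux1 and not in ein2 had median differences in Col of 1.48 with ethylene and 0.78 with IAA. For those called in ein2 and not in aux1 the Col medians were 0.95 with ethylene and 2.105 with IAA. The larger Col effect was that of ethylene for 20 of the 27 and for 2 of the 12. Across all members, the mutant effect and the Col effect of the same hormone had r of 0.855 and rho of 0.656 for ethylene. For IAA they had r of 0.859 and rho of 0.721. The Col values were those that chose the members, so these counts and coefficients are a description and nothing is concluded from them.

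Of the genes with a locus, 9 were called in both mutants. AT3G19200, whose product has no described function in the annotation used here, had 7.49 and 7.04 in aux1 with ethylene, against 5.38 and 5.68 in aux1 with air. It had 6.92 and 7.05 in ein2 with IAA, against 4.30 and 4.12 in ein2 with mock. Treated and control arrays were far apart in both mutants. It rose by 1.73 ± 0.25 with ethylene in aux1 (limma, adjusted p = 0.00132) and by 2.77 ± 0.25, or 6.84-fold, with IAA in ein2 (limma, adjusted p = 8.11e-05). In Col its differences were 2.00 with ethylene and 2.75 with IAA.

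AT5G62280, also without a described function, had the largest Col ethylene difference among members with a locus, 3.74. Its levels were 7.48 and 6.60 in aux1 with ethylene, against 5.19 and 4.20 with air, and 7.45 and 7.84 in ein2 with IAA, against 5.63 and 5.49 with mock. Neither pair of groups overlapped. It rose by 2.34 ± 0.39 in aux1 (limma, adjusted p = 0.00364) and by 2.09 ± 0.39 in ein2 (limma, adjusted p = 0.0141), and the Col differences were 3.74 and 3.00. Its ein2 call was lost when any 1 of the 4 ein2 arrays was left out, with adjusted p between 0.0582 and 0.107.

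AT1G62770 encodes a protein of the pectin methylesterase inhibitor family and so bears on how tightly wall pectin is cross-linked. It rose more with IAA in ein2 than with ethylene in aux1. Its levels were 10.11 and 10.12 in ein2 with IAA, against 7.50 and 7.59 with mock, a rise of 2.56 ± 0.17 or 5.91-fold (limma, adjusted p = 5.48e-06), and the Col IAA difference was 3.70. In aux1 it had 8.70 and 9.13 with ethylene, against 8.27 and 8.12 with air. The aux1 rise of 0.72 ± 0.17 (limma, adjusted p = 0.0243) resembled the Col difference of 0.79, and was no longer called without aux1 air replicate 1 or 2 or aux1 ethylene replicate 2 (adjusted p = 0.051, 0.145 and 0.183).

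TRM28, a TON1-recruiting-motif protein of the group that guides the ordering of microtubules, had 9.28 and 9.09 in aux1 with ethylene, against 7.95 and 8.16 with air, and 7.42 and 7.28 in ein2 with IAA, against 5.74 and 6.02 with mock. The groups were apart in both mutants, by 1.12 ± 0.23 (limma, adjusted p = 0.0114) and 1.47 ± 0.23 (limma, adjusted p = 0.00427). Its aux1 call was lost without aux1 air replicate 1 (adjusted p = 0.0635) or aux1 ethylene replicate 1 (adjusted p = 0.0738), and its ein2 call without ein2 mock replicate 1 (adjusted p = 0.0502). The F-box gene AT2G32560, of the kind that selects proteins for degradation, had 7.95 and 7.98 in aux1 with ethylene, against 6.30 and 6.33 with air. Its rise of 1.65 ± 0.14 (limma, adjusted p = 3.85e-05) was called with every single array left out, and stood beside 1.13 in Col. In ein2 it rose by 0.71 ± 0.14 with IAA (limma, adjusted p = 0.0198), a call lost without any 1 of the 4 ein2 arrays (adjusted p between 0.051 and 0.179).

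The other genes called in both mutants were AT2G34140, AT5G57340, AT4G37240 and AT1G32690. AT2G34140, a Dof-type transcription factor gene, rose by 0.69 in aux1 and by 0.72 in ein2, AT5G57340 by 0.89 and 0.73, AT4G37240 by 0.90 and 1.13, and AT1G32690 by 1.23 and 0.76. Some of these calls rested on single arrays. Those of AT4G37240 and AT1G32690 were lost without 1 array: the aux1 call of AT4G37240 without any 1 of the 4 aux1 arrays, its ein2 call without ein2 mock replicate 2 (adjusted p = 0.18) or ein2 IAA replicate 2 (adjusted p = 0.153), and the ein2 call of AT1G32690 without any 1 of the 4 ein2 arrays (adjusted p between 0.0568 and 0.185). The ein2 call of AT5G57340 was lost without ein2 mock replicate 1 (adjusted p = 0.0613) or ein2 IAA replicate 1 (adjusted p = 0.061), and that of AT2G34140 without ein2 mock replicate 2 (adjusted p = 0.0657).

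**Figure D2:**
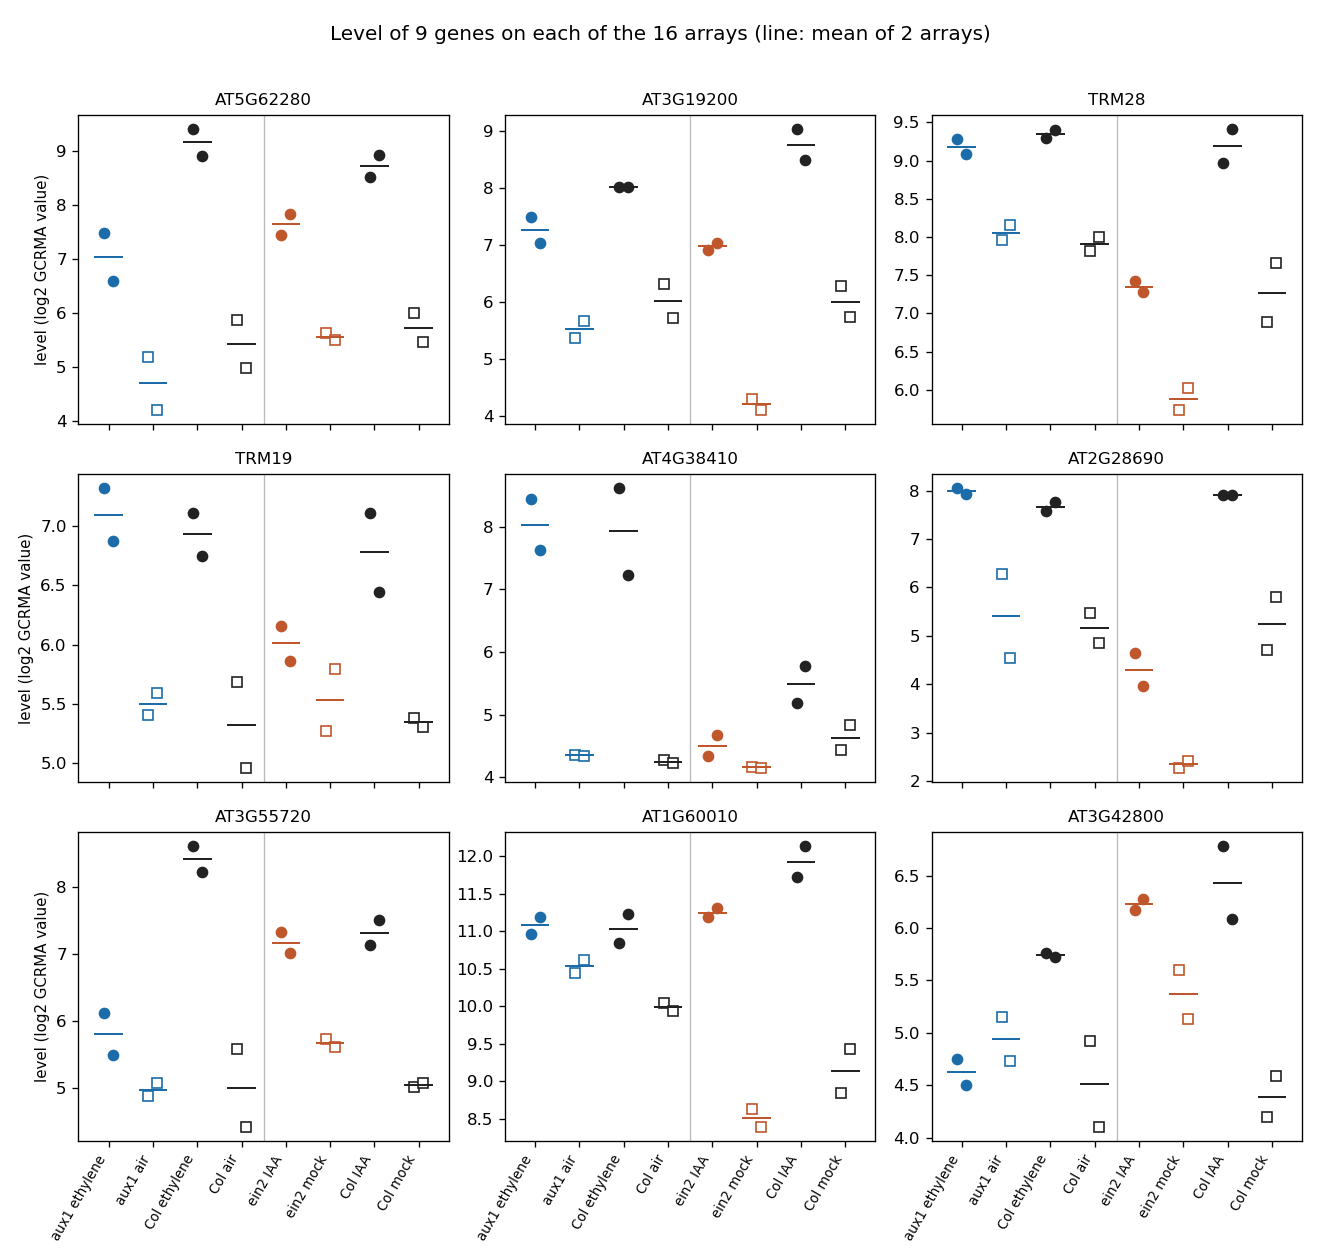
Level on each of the 16 arrays (vertical axis, log2) for members described in the text, with the treated group left of its control and the mutant left of Col; points are arrays and lines are means of 2 arrays. For AT3G19200 the treated and control arrays stay apart in both mutants, as they do in Col.

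Of the genes with a locus, 13 were called for ethylene in aux1 and not for IAA in ein2. The strongest was the dehydrin-type gene AT4G38410, of a family linked to water deficit and cold. It had 8.43 and 7.63 in aux1 with ethylene, against 4.36 and 4.34 with air, and the groups were far apart. The rise of 3.68 ± 0.38, or 12.8-fold (limma, adjusted p = 0.000159), was the size of the Col difference, 3.68. With IAA it had 4.34 and 4.67 in ein2, against 4.17 and 4.14 with mock, a difference of 0.35 (limma, adjusted p = 0.803).

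AT5G18470, a mannose-binding lectin-type gene whose product belongs to a secreted protein family, had 8.11 and 7.83 in aux1 with ethylene, against 5.08 and 4.41 with air. It rose by 3.23 ± 0.64, or 9.36-fold (limma, adjusted p = 0.00974), a call lost without aux1 air replicate 2 (adjusted p = 0.0859) or aux1 ethylene replicate 1 (adjusted p = 0.0588). Its Col air arrays were themselves apart, at 6.44 and 3.69. AT2G28690 had 8.06 and 7.94 in aux1 with ethylene, against 6.28 and 4.54 with air, a rise of 2.59 ± 0.48 (limma, adjusted p = 0.00721). In ein2 it had 4.64 and 3.95 with IAA, against 2.26 and 2.42 with mock, and the difference of 1.95 ± 0.48 just missed the threshold (limma, adjusted p = 0.0536). The groups of AT2G28690 did not overlap in either mutant.

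AT5G43450, a gene of the 2-oxoglutarate-dependent oxygenase family that also holds the last enzyme of ethylene synthesis, had 6.31 and 6.66 in aux1 with ethylene, against 4.83 and 4.45 with air. It rose by 1.85 ± 0.31 (limma, adjusted p = 0.0035). The transcription factor gene bZIP44 had 10.16 and 9.86, against 8.30 and 8.43, a rise of 1.64 ± 0.24 (limma, adjusted p = 0.00133). The second TON1-recruiting-motif gene, TRM19, had 7.32 and 6.87, against 5.40 and 5.60, a rise of 1.60 ± 0.29 (limma, adjusted p = 0.00573). None of these groups overlapped, and these 3 genes had IAA differences in ein2 of 0.78, 0.51 and 0.48, which were not called.

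The remaining genes called in aux1 and not in ein2 rose by 0.70 to 1.59. AT1G77640, an ERF/DREB-type transcription factor gene of the family through which ethylene responses are often relayed, rose by 1.35 ± 0.24 (limma, adjusted p = 0.00605), a call lost without aux1 air replicate 2 (adjusted p = 0.0656). AT1G79470, for IMP dehydrogenase, the enzyme that commits purine synthesis to guanine nucleotides, rose by 0.93. AT1G15170, for a MATE-type exporter of small molecules, rose by 1.02 with adjusted p = 0.0478 in limma, a call lost when any 1 of 15 of the 16 arrays was left out (adjusted p between 0.0546 and 0.252). The exception was aux1 air replicate 1, and without aux1 air replicate 2 the AT1G15170 difference was 0.47. The others were AT3G20300 (1.59), the Tudor-domain gene AT5G10950 (0.83), AT5G47060 (0.83) and the AAA-type ATPase gene AT5G17760 (0.70). The IAA differences of these genes in ein2 were not called but were positive. They were 1.07 for AT3G20300, 0.96 for AT1G77640, 0.68 for AT5G47060, 0.60 for AT5G17760, 0.49 for AT1G79470, 0.36 for AT1G15170 and 0.18 for AT5G10950. In a fit on the IAA experiment alone, AT1G77640, AT5G47060 and AT5G17760 were called in ein2, and AT3G20300 was in a fit on mutant arrays alone.

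Several of these aux1 calls also rested on 1 array. AT3G20300 was lost without aux1 air replicate 2 (adjusted p = 0.209) or aux1 ethylene replicate 1 (adjusted p = 0.186), AT5G47060 without the same arrays (adjusted p = 0.162 and 0.133), and AT5G10950 without aux1 air replicate 2 (adjusted p = 0.0515) or aux1 ethylene replicate 2 (adjusted p = 0.0707). AT1G79470 was lost without aux1 air replicate 1 or either aux1 ethylene array (adjusted p = 0.0508, 0.0516 and 0.0506), and AT5G17760 without any 1 of the 4 aux1 arrays. Of the 22 genes with a locus called in aux1, 11 were called with every single array left out.

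The 6 genes with a locus called for IAA in ein2 and not for ethylene in aux1 included AT1G60010. It had 11.18 and 11.30 in ein2 with IAA, against 8.62 and 8.39 with mock, and the groups were well apart. It rose by 2.74 ± 0.21, or 6.67-fold (limma, adjusted p = 1.88e-05), beside a Col IAA difference of 2.79. In aux1 it had 10.96 and 11.20 with ethylene, against 10.44 and 10.62 with air, without overlap, and the difference of 0.55 ± 0.21 was not called (limma, adjusted p = 0.165). Its neighbour in the gene order of chromosome 1, AT1G60000, an RNA-binding protein gene, was also a member, with differences of 0.42 in aux1 and 0.91 in ein2, neither of them called.

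AT5G13140, a gene of the Ole e 1 and extensin-like family of secreted proteins, was low in most groups. It had 5.24 and 5.08 in ein2 with IAA, against 2.73 and 3.12 with mock, a rise of 2.24 ± 0.33 (limma, adjusted p = 0.00314), while the Col IAA difference was 0.99. AT5G51380, for a leucine-rich-repeat protein, had 6.92 and 7.25, against 5.30 and 5.40, a rise of 1.73 ± 0.22 (limma, adjusted p = 0.00094). AT3G26760, for a short-chain dehydrogenase, had 9.86 and 9.91, against 8.62 and 8.68, a rise of 1.23 ± 0.15 (limma, adjusted p = 0.000785). In all 3 the IAA and mock groups of ein2 were separate. With ethylene in aux1, AT5G13140 and AT5G51380 had differences of -0.28 and 0.20, which were not called. AT3G26760 had 0.50 ± 0.15, also not called (limma, adjusted p = 0.077), although both ethylene arrays stood above both air arrays.

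AT3G55720 had an ethylene difference of 3.42 in Col. In aux1 it had 6.12 and 5.50 with ethylene, against 4.88 and 5.08 with air, and the difference of 0.83 ± 0.32 was not called (limma, adjusted p = 0.171), although the groups did not overlap. In ein2 it rose with IAA by 1.50 ± 0.32 (limma, adjusted p = 0.0273), a call lost without any 1 of the 4 ein2 arrays (adjusted p between 0.0835 and 0.202). AT1G33790, a jacalin-type lectin gene, rose by 1.17 ± 0.20 in ein2 (limma, adjusted p = 0.00683). The call was lost without ein2 mock replicate 1 (difference of 1.10) or ein2 IAA replicate 2 (difference of 0.97). In aux1 AT1G33790 had 6.09 and 5.69 with ethylene, against 5.26 and 5.13 with air, without overlap. That difference of 0.70 ± 0.20 just missed the threshold (limma, adjusted p = 0.0581). Of the 15 genes with a locus called in ein2, 6 were called with every single array left out.

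**Figure D3:**
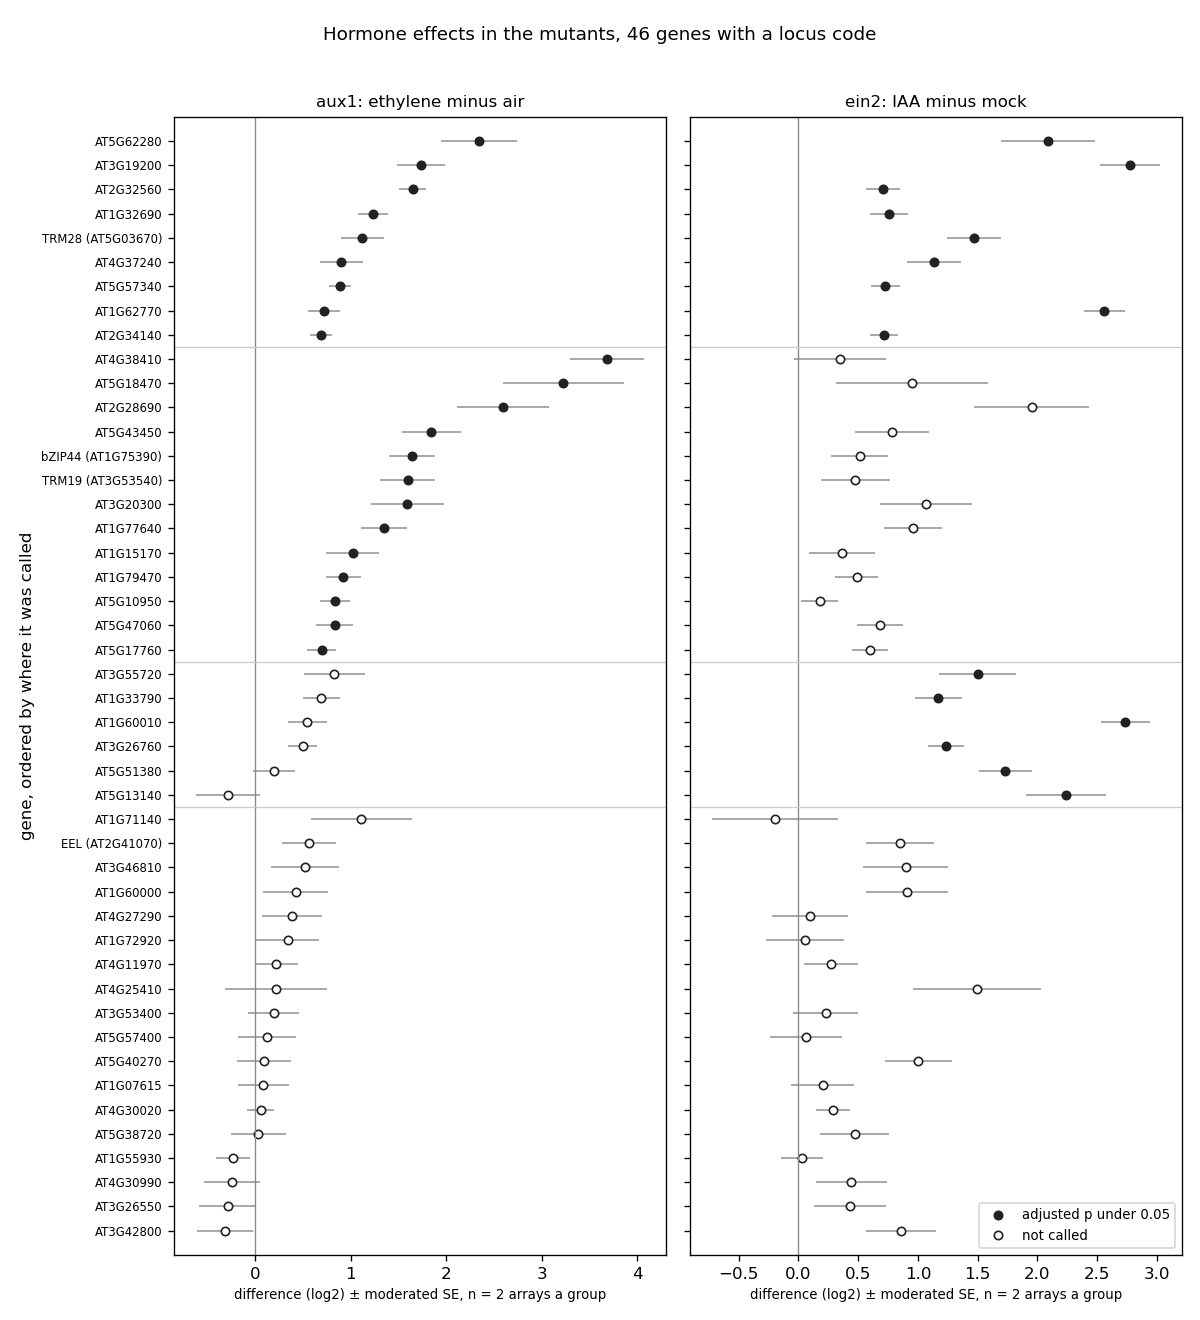
Hormone effects (horizontal axis, log2 difference) of the members with a locus, 1 gene per line, for ethylene minus air in aux1 and IAA minus mock in ein2. Error bars are moderated standard errors (n = 2 arrays per group) and filled points were called; AT4G38410 reaches 3.68 in aux1 and AT3G19200 reaches 2.77 in ein2.

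Another 18 genes with a locus were called in neither mutant. Their ethylene differences in aux1 ran from -0.32 to 1.11 and were above 0 for 14, and their IAA differences in ein2 ran from -0.20 to 1.49 and were above 0 for 17. AT3G42800 had 4.75 and 4.50 in aux1 with ethylene, against 5.15 and 4.73 with air, and the groups overlapped in a narrow span, with a difference of -0.32 (limma, adjusted p = 0.641). In ein2 it had 6.17 and 6.28 with IAA, against 5.60 and 5.13 with mock, a difference of 0.86 (limma, adjusted p = 0.173). AT4G27290, an S-locus-type receptor kinase gene, had 3.52 and 2.85, against 2.85 and 2.76, in aux1, and 2.82 and 2.85, against 2.70 and 2.78, in ein2. Its mutant differences were 0.39 and 0.09, with Col differences of 1.39 and 1.18.

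EEL, a bZIP transcription factor gene first described in late embryo development, had 6.38 and 6.03 in aux1 with ethylene, against 5.88 and 5.40 with air. In ein2 it had 6.82 and 6.73 with IAA, against 5.81 and 6.04 with mock. Neither pair overlapped, and the differences of 0.57 and 0.85 missed the threshold (limma, adjusted p = 0.321 and 0.167). The bHLH-type gene AT4G25410 had an IAA difference of 1.49 ± 0.53 in ein2 (limma, adjusted p = 0.199), beside 2.68 in Col. The MATE-type transporter gene AT1G71140 had differences of 1.11 ± 0.53 in aux1 and -0.20 ± 0.53 in ein2, and its Col IAA arrays spanned 6.21 and 4.27. AT1G55930, for a CBS-domain protein, had -0.23 in aux1 and 0.03 in ein2.

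By role, grouped after the values were known, 5 members encode transcription factors (AT1G77640, bZIP44, AT2G34140, EEL and AT4G25410). Of these, 3 were called higher with ethylene in aux1 and 1 with IAA in ein2. Both TRM genes were called in aux1 and 1 of them in ein2. Of 6 genes grouped as wall or secreted, 2 were called in aux1 and 3 in ein2. This loose group includes the receptor kinase gene AT4G27290 and the jacalin-type lectin gene AT1G33790. Of 5 genes grouped as transport and small-molecule enzymes, a group that also took in the AAA-type ATPase gene AT5G17760, 3 were called in aux1 and 1 in ein2. Among 6 genes linked to nucleotides and RNA, 1, AT1G79470, was called in aux1. None of them was called in ein2 by limma, where 3 of the 6 had an unadjusted p under 0.05. Over all 88 members the counts were 43 in aux1 and 28 in ein2, and over all probe sets 3.28% and 1.90% were called higher. These groups are small, no test was made on them, and nothing particular to a group is read from its count.

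The unlisted members held the most extreme values. Chosen after their values were seen, the one with the largest ethylene difference had 10.53 and 10.43 in aux1 with ethylene, against 3.85 and 3.58 with air. The rise was 6.76 ± 0.29 (limma, adjusted p = 1.9e-07), beside 6.46 in Col. With IAA it had 2.94 and 2.66 in ein2, against 2.97 and 3.14 with mock, a difference of -0.26 (limma, adjusted p = 0.809). Of the 41 unlisted members, 21 were called in aux1 and 13 in ein2, near the shares among the 46 with a locus, which were 22 and 15.

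The base level is the level without hormone, set against Col. These mutant-minus-Col differences have no test here, because the choice of members used the same Col arrays and favours low Col controls. In mock-treated ein2, 16 members were at or below -0.6 and 16 at or above 0.6 relative to mock-treated Col, against 5.60% and 5.83% of all probe sets. The median was 0.09, against 0.03 over all. Both ein2 mock arrays lay above both Col mock arrays for 31 members, against 33.3% of all probe sets, and below them for 25, against 26.6%, shares near the background. The members' replicates were also further apart than those of all probe sets, with a median SD of 0.16 against 0.08 in Col mock and 0.12 against 0.10 in ein2 mock, and the part of this spread in the 16 and 16 was not tested.

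AT2G28690 was lowest among those with a locus. It had 2.26 and 2.42 in ein2 with mock, against 4.71 and 5.80 in Col with mock, a difference of -2.91. With IAA, ein2 had 4.64 and 3.95, still below both Col mock arrays. AT3G19200 had 4.30 and 4.12 in ein2 with mock, against 6.28 and 5.74 in Col with mock, a difference of -1.80, but its IAA-treated ein2 arrays, at 6.92 and 7.05, lay above both Col mock arrays. TRM28 had 5.74 and 6.02 in ein2 with mock, against 6.88 and 7.66 in Col, a difference of -1.39, and AT5G43450 had 2.61 and 2.76, against 3.49 and 4.34, a difference of -1.23. The mock groups of these 4 genes did not overlap. An unlisted probe set, the lowest of all members and chosen for that, had 2.08 and 2.11 in ein2 with mock, against 5.20 and 6.31 in Col, a difference of -3.66.

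On the other side, AT3G42800 had 5.60 and 5.13 in ein2 with mock, against 4.20 and 4.58 in Col, a difference of 0.98. The subtilase gene AT4G30020 had 7.52 and 7.45, against 6.74 and 6.84, a difference of 0.70, and AT1G79470 had 7.89 and 7.79, against 7.05 and 7.30, a difference of 0.67. AT3G55720 had 5.73 and 5.62, against 5.03 and 5.08, and AT1G77640 had 4.32 and 3.75, against 3.30 and 3.57, differences of 0.62 and 0.60. For all 5 genes the ein2 and Col mock arrays were separate.

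The ein2 base levels were set beside the ethylene effect in aux1. In aux1, 43 of all 88 members and 3.28% of all probe sets were called higher. Of the 16 with base levels at or below -0.6 in ein2, 13 were called for ethylene in aux1, with a median difference of 1.42. Of the 16 at or above 0.6, 5 were called, with a median of 0.52, and of the 56 between, 25 were called, with a median of 0.71. Across the 88 members the ethylene effect in aux1 and the ein2 base difference had r of -0.45 and rho of -0.52. They share no array, and this is a description over probe sets. The same comparison was not made over all probe sets, so it is not read as particular to the members.

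In aux1 the base levels were closer to Col than in ein2, over all probe sets as well as among the members. Air-treated aux1 minus air-treated Col had a median of -0.04, against 0.01 over all probe sets, with 8 members at or below -0.6 and 4 at or above 0.6, against 2.197% and 1.85% of all probe sets. Both aux1 arrays lay above both Col arrays for 17 members, against 17.6%, and below them for 17, against 14.6%. AT5G62280 was lowest among genes with a locus, with 5.19 and 4.20 in aux1 with air, against 5.87 and 4.98 in Col with air, a difference of -0.73 in which the groups overlapped. It was the only 1 of the 8 low members with a locus. An unlisted probe set, the lowest of all members and chosen for that, had 4.77 and 4.49, against 7.89 and 6.38, a difference of -2.51 without overlap. AT1G60000 was highest among genes with a locus, with 3.89 and 4.52, against 3.59 and 3.50, a difference of 0.66 without overlap.

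**Figure D4:**
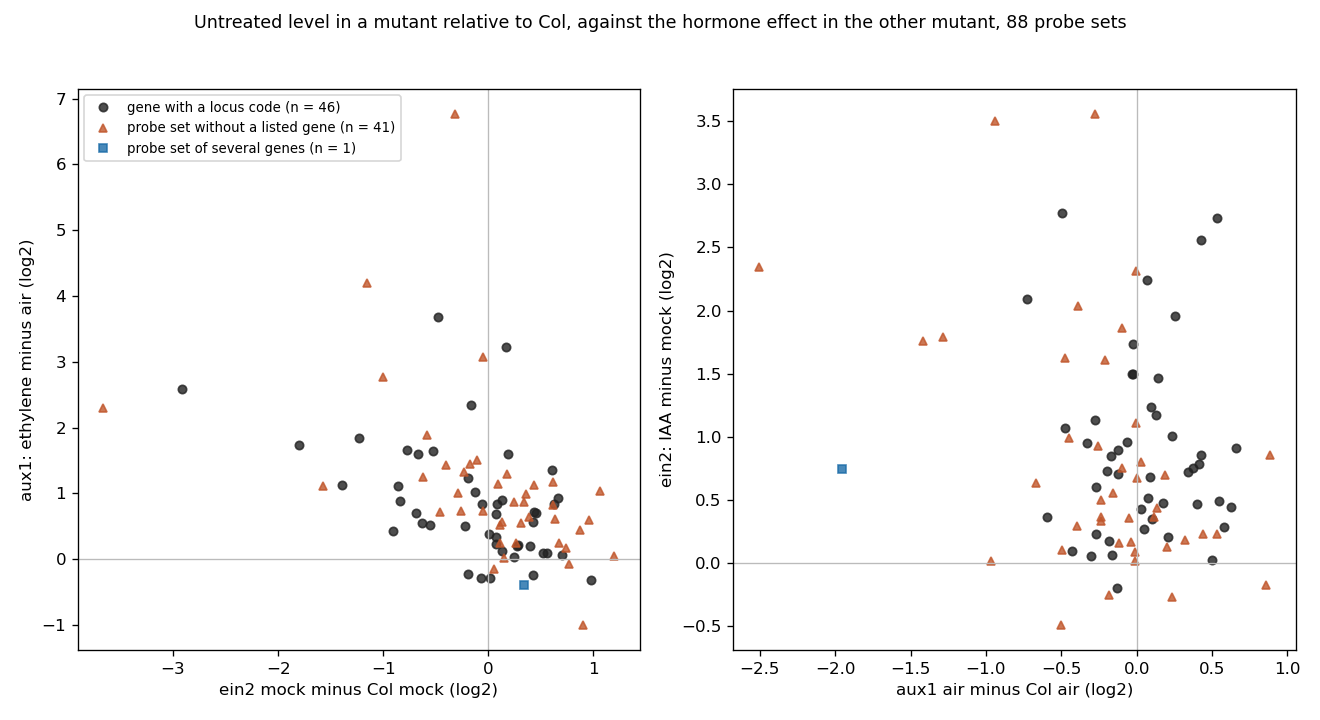
Base level of each member in one mutant minus Col without hormone (horizontal axis, log2) against the hormone effect in the other mutant (vertical axis, log2), ein2 base levels in the left panel and aux1 base levels in the right. Points are probe sets. In ein2 16 members were at or below -0.6 and 16 at or above 0.6, against 5.60% and 5.83% of all probe sets. In aux1 the numbers were 8 and 4, against 2.197% and 1.85%. The wider spread in ein2 thus held over all probe sets too.

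Genes of the hormone pathways themselves were mostly unlisted in the annotation, and no listed one was a member. Unlisted genes may stand among the tested probe sets, or among the 41 unlisted members, without a name. The counts of tested genes below therefore cover named probe sets only. Of 14 ethylene signalling genes, 2 were tested, and RTE1, a regulator of the ETR1 receptor, rose with ethylene by 2.74 ± 0.18 in aux1 (limma, adjusted p = 4.99e-06) but had an IAA difference in Col of 0.30, below the limit. EIN3 was not called in any of the 4 comparisons. Of 24 auxin signalling genes 4 had a named probe set, and 1, IAA18, passed the filter and was tested. Of 14 auxin synthesis genes 2 had a named probe set, and 1, YUC6, was tested. Neither IAA18 nor YUC6 was called in the 4 comparisons. No gene of the lists for ethylene synthesis (11) and auxin transport (13) had a named probe set. Of 10 genes on the root hair list 3 were tested. The root hair expansin genes EXPA7 and EXPA18 were not called in any of the 4 comparisons, with ethylene differences in aux1 of 0.84 and 0.55. ARL, on this list but linked to organ size, rose with ethylene by 3.34 ± 0.35 in aux1 (limma, adjusted p = 0.000163) with an IAA difference in Col of 0.01. Of 8 type-A cytokinin response regulators 1 was tested, RR16, which was not called in aux1 or ein2. Its ethylene difference was 1.81 ± 0.28 in Col (limma, adjusted p = 0.00178) and 0.35 ± 0.28 in aux1 (limma, adjusted p = 0.578). Its level was low, with a mean of 3.17 in Col with air, and its IAA difference in Col was 0.03.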

How the data were processed

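Per the submitters' processing notes, the authors made the deposited values with GCRMA. Its version and settings are not given in the sources used here. The deposited values are log2 expression values per probe set, which was read from their range, and they were used as deposited. Of 22810 probe sets, 64 controls were left out, and probe sets above 4 in at least 2 of 16 arrays (14244) were tested.

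A model with 1 coefficient for each of the 8 groups was fitted with limma 3.58.1 (R 4.3.3), with eBayes and 8 residual degrees of freedom. Tests were two-sided, with Benjamini-Hochberg adjustment over all 14244 probe sets. The fit was tested on simulated data. The members, gene lists and role groups were chosen with earlier results of these data known, so nothing here is independent of that choice. The rule for named genes took members with a symbol, those with a locus whose wild-type, aux1, ein2 or base-level differences were the largest or smallest, and those nearest the limit. All 46 members with a locus were followed, a departure from the plan. Probe sets were named through the platform annotation supplied. Members of the DUF241 and peroxidase families were recognised by locus, since the annotation gives no family. Sequences and promoter motifs were not used here. For arrays the number per group limits the precision. Alternatives were other scalings, filters and limits, a fit per experiment or on mutant arrays alone, the replicate number as a block, and leaving out each array.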

Additional observations from a re-analysis of the deposited data

Results flagged for a closer look

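AT5G13140, an Ole e 1 and extensin-like gene, had ethylene differences of opposite sign in aux1 and Col. Its levels were 2.58 and 2.56 in aux1 with ethylene, against 2.82 and 2.88 in aux1 with air, a difference of -0.28. In Col both ethylene arrays, at 4.20 and 3.23, stood above both air arrays, at 2.65 and 2.91. The difference between the genotypes was not tested, the Col direction was fixed by the choice of members, and the aux1 values lie near the lower quartile of the arrays, which was at most 2.55.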

How the results depend on the processing

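The number of members moved with the limit: 24 with a Col limit of 1, 46 when the limit had to be met within each replicate number, and 84 to 130 when single Col arrays were left out. The aux1 count of 43 members called was 22 in a fit on mutant arrays alone, 3 when a change of more than 2-fold had to be shown and 26 to 44 with 1 array left out, and the ein2 count of 28 was 6 with the 2-fold requirement and 15 to 32 with 1 array left out. Median differences with 1 array left out were 0.65 to 0.94 in aux1 and 0.63 to 0.69 in ein2. Of the 40 members still chosen with any Col array left out, 22 were called in aux1 and 19 in ein2, and of the 24 with both Col differences of at least 1, 13 and 12 were called, settings chosen after seeing the data. With the replicate number as a block, 52 members were called in aux1, 51 of them higher, and 35 in ein2. Under this block EEL was called in aux1 and ein2 (limma, adjusted p = 0.0311 and 0.00797), AT2G28690, AT4G25410 and AT5G40270 were called in ein2 (limma, adjusted p = 0.0383, 0.0218 and 0.00399), and AT3G26760 and AT1G33790 in aux1 (limma, adjusted p = 0.0119 and 0.0489). The deviations of replicate 1 from its group mean correlated between treated and control groups, over all tested probe sets. The coefficient was 0.41 in both mutants, and in Col 0.33 for ethylene and 0.27 for IAA. With 2 numbers and no label on what they share, same-numbered arrays were not treated as pairs. Median centring, quantile normalization, other filters and an intensity trend kept the counts within 1.5-fold. No called gene with a locus changed sign in any setting (0 of 22 in aux1 and 0 of 15 in ein2). Among those not called the sign differed between settings for 10 of 24 in aux1 and 3 of 31 in ein2. Filters, the trend, the block and leaving out arrays of other groups do not change a difference. Little is therefore read from the called genes keeping their sign. One of the 39 members called in aux1 without aux1 air replicate 1 was lower.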

Other observations

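With hormone present, the mutants' levels of the members were often below those of Col, a comparison to which the choice of members contributes because it favours high treated Col values, so no test is given. In ethylene, 26 members were at or below -0.6 in aux1 relative to Col and 1 at or above 0.6, against 3.00% and 2.64% of all probe sets. AT3G55720 differed by -2.61 and AT5G62280 by -2.13, whereas AT4G38410 differed by 0.10. With IAA, 35 members were at or below -0.6 in ein2 relative to Col and 2 at or above 0.6, against 4.00% and 5.50%. AT2G28690 differed by -3.62, AT1G71140 by -1.97, TRM28 by -1.84 and AT3G19200 by -1.78. AT5G13140 was one of the members that were higher in ein2, at 5.24 and 5.08 with IAA, against 3.45 and 4.53 in Col, a difference of 1.18.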
